A study of Mus musculus with 12 samples.

Results

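Bidirectional promoters of divergent gene pairs were taken from the mouse mm9 annotation as pairs of autosomal protein-coding genes on opposite strands, transcribed away from each other, with the 5′-most transcription start sites (TSSs) at most 1000 bp apart. There were 789 such pairs, holding 1562 of 21418 autosomal protein-coding genes (7.29%), and 16 of these genes belonged to 2 pairs at the same place. The other genes gave 19856 single promoters for comparison. These were not filtered for neighbouring genes. They can thus include genes of divergent pairs farther apart and of head-to-head pairs with overlapping first bases. ChIP-seq reads of 6 histone marks were counted in C2C12 cells, an immortal myoblast line from C3H mice, as near-confluent myoblasts in serum and as fused myotubes about 5 days after serum was withdrawn, the myotubes having been freed of unfused cells by light trypsin treatment. Both states come from the same untreated line. There was 1 library for each mark and state, 12 in all, and no replicate, so every ratio of myotubes to myoblasts compares 2 libraries and has no replicate check.

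In a bidirectional promoter the same stretch of DNA starts RNA synthesis in both directions, and many genes of basic cell functions are arranged this way. H3K4me3 and H3K27ac mark nucleosomes beside active start sites and H3K4me2 a wider zone around them. H3K4me1 lies farther out at promoters and at enhancers, H3K36me3 is laid down along transcribed gene bodies, and H3K27me3 marks genes silenced by Polycomb.

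The gap, meaning the distance between the TSSs, had a median of 141 bp (quartiles 73 and 271 bp, range 1 to 987 bp). It was up to 100 bp in 292 pairs, above that and up to 200 bp in 219, up to 400 bp in 169, up to 700 bp in 76 and up to 1000 bp in 33. The window of a pair ran from 3 kb outside one TSS to 3 kb outside the other, and the TSS of another protein-coding gene lay in the window of 47 pairs. Libraries held 1858771 to 7033100 reads, or 0.727 to 2.75 reads per kb, and levels are given as fold over this mean. The labels were checked at 10 muscle genes. H3K4me3 within 1 kb of the TSS of Acta1, skeletal muscle actin, was 1.84-fold in myoblasts and 83.4-fold in myotubes, and that of Myog, the myogenic factor myogenin, was 5.99-fold and 34.5-fold, while Myod1 and Des were marked in both states. At 11 markers of liver, blood, vessel, neural, epithelial and stem cells it stayed between 0 and 1.94-fold, except at Sox2 with 5.07-fold and 4.26-fold.

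The gaps of 8 pairs are shown because their values are described in the sections that follow. They are pairs known from textbooks and pairs with the largest changes of a mark, with gaps of 30 to 300 bp. Each runs 5′ to 3′ on the plus strand of mm9 (NCBI build 37), from the first base of the minus-strand gene, named first, to the first base of the plus-strand gene. Capitals mark matches on either strand to 5 motifs, namely the TATA box TATAAA, the CCAAT box CCAAT, the GC box GGGCGG, the ETS-family core CCGGAAG and GCGCATGC, the core of the NRF1 site. Where matches overlap, their letters run together.
Col4a4/Col4a3, chr1:82583424-82583496: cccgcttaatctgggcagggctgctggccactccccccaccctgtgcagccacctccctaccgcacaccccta
Aimp2/Pms2, chr5:144670716-144670833: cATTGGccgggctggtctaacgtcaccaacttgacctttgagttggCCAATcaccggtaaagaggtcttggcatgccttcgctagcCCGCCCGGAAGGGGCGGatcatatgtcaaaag
Mrps12/Sars2, chr7:29526839-29527010: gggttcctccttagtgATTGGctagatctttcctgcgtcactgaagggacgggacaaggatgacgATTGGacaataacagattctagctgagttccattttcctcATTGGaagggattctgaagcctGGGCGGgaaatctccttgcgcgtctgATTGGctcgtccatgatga
Brca1/Nbr1, chr11:101413269-101413463: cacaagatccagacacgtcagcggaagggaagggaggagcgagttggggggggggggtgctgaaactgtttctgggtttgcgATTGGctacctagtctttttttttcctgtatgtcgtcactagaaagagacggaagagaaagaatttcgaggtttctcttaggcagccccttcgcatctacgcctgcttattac
1200016B10Rik/1190005F20Rik, chr1:153275585-153275778: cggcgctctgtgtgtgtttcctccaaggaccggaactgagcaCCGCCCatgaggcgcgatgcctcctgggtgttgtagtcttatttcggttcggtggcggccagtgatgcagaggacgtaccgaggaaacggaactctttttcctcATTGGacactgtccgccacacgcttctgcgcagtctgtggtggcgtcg
Rps6kb1/Tubd1, chr11:86358307-86358493: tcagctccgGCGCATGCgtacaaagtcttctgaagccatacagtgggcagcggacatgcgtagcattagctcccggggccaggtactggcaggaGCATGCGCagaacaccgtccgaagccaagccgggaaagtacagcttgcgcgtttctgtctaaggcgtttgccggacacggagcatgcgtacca
Pusl1/Acap3, chr4:155265890-155265984: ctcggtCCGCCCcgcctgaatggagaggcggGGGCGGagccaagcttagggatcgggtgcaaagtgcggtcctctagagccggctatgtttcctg
Cdc27/Myl4, chr11:104411934-104411977: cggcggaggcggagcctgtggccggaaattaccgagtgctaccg

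No TATA box was found in these 8 gaps. The gap of Mrps12 and Sars2, which encode a protein of the mitochondrial ribosome and the mitochondrial seryl-tRNA synthetase, held 4 CCAAT boxes, and that of Rps6kb1 and Tubd1, encoding S6 kinase and delta-tubulin, held 2 NRF1 cores. No motif was found in the gaps of Col4a4/Col4a3 and Cdc27/Myl4. Over all pairs, 300 bp centred on the gap had a median GC content of 62.3% and a median CpG ratio (observed over expected) of 0.85. At single promoters, 300 bp centred 70 bp upstream of the TSS gave 55.7% and 0.52, and the 8400 single promoters with an H3K4me3 peak in myoblasts gave 62.7% and 0.81. The ETS core was found at 28.6% of the pairs and 10.7% of all promoters, the NRF1 core at 6.72% and 3.2%, the CCAAT box at 42.6% and 36.8%, the GC box at 66.9% and 43.8%, and the TATA box at 4.82% and 12.9%. At single promoters with an H3K4me3 peak the ETS core stood at 19.5%, the NRF1 core at 5.86%, the CCAAT box at 37.1%, the GC box at 69.4% and the TATA box at 5.81%. A match of letters is a description and not a bound site.

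Pairs carried the marks of active promoters in nearly all cases. H3K4me3 over the whole window had a median of 18.3-fold in myoblasts (95% interval of the median 17.2 to 18.98) and 16.4-fold in myotubes (15.6 to 17.2), against 1.84-fold and 1.81-fold at all single promoters and 13.2-fold and 12.2-fold at those with an H3K4me3 peak. The counting interval of the window lay above the library mean in 740 of 789 pairs in myoblasts and 738 in myotubes. These 2 counts have no share of all promoter windows beside them. H3K27ac had medians of 11.4-fold and 6.13-fold, beside 9.86-fold and 5.86-fold at single promoters with a peak. H3K4me2 had 16.0-fold and 11.9-fold, beside 15.0-fold and 10.6-fold. H3K4me1 was low, with 2.64-fold and 2.92-fold, beside 2.9-fold and 2.85-fold. Intervals of medians reflect the number of pairs, and intervals of counts cover counting error only.

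H3K36me3 over the window was 2.15-fold in myoblasts and 1.63-fold in myotubes, beside 1.64-fold and 1.28-fold at single promoters with a peak. Against the 200 kb around each pair rather than the library mean, these medians turned to 0.857-fold and 0.663-fold. H3K27me3 lay below the library mean, with 0.761-fold and 0.721-fold, and its interval exceeded the mean in 64 pairs in myoblasts and 46 in myotubes. Neither count has a share of all promoter windows beside it.

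Most pairs lay in a single deposited H3K4me3 peak. One peak covered both TSSs in 694 pairs in myoblasts and 669 in myotubes, 655 of them in both states. Each TSS had its own peak in 8 and 14 pairs, 1 TSS alone was in a peak in 22 and 32 pairs, and neither was in 65 and 74. In 61 pairs neither TSS was in a peak in either state. The TSS was in a peak at 8400 (42.3%) and 7914 (39.9%) of the single promoters. The myoblast list deposited with H3K27me3 had a peak in 721 windows and the list deposited with H3K27ac in 20, and the track header inside each file names the other mark. The myotube lists had H3K27ac peaks in 679 windows and H3K27me3 peaks in 9.

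**Figure D1:**
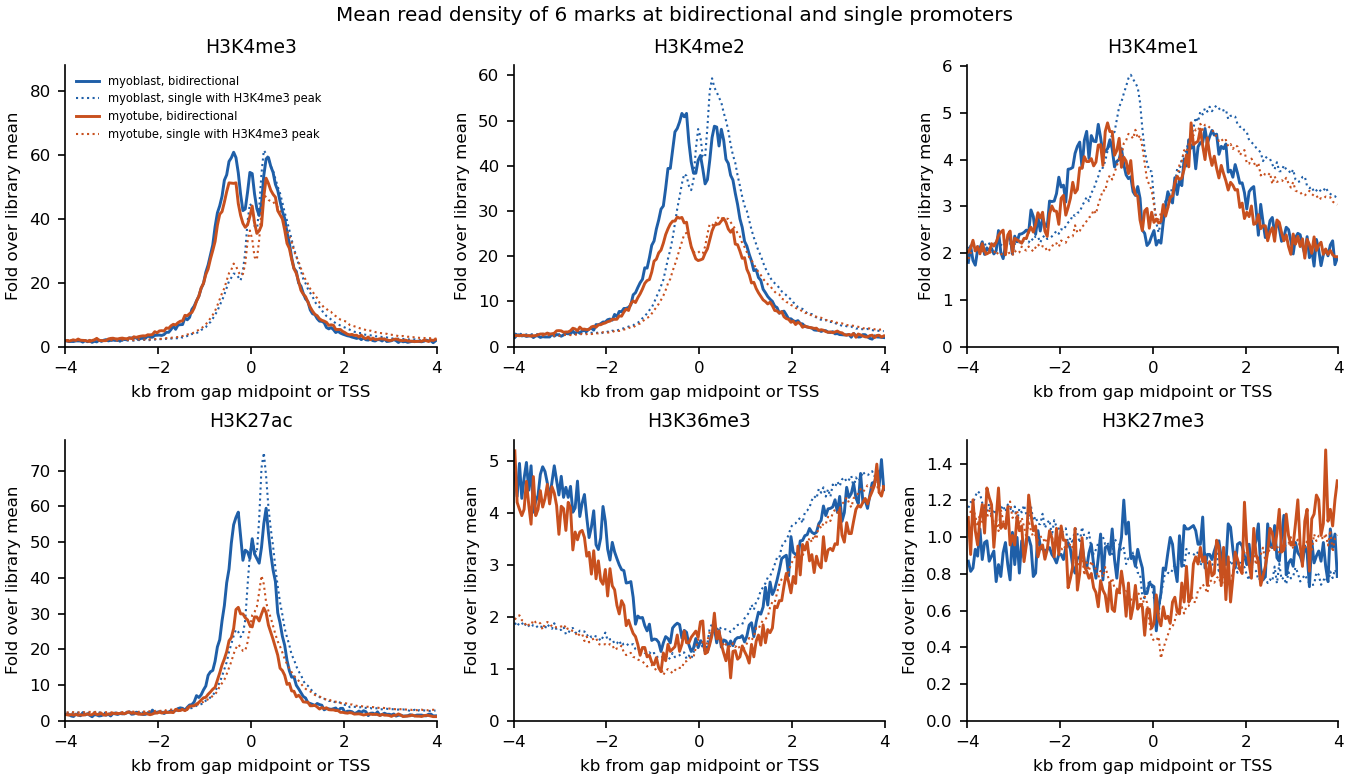
Mean density of the 6 marks (y axis, fold over the library mean) in 50 bp steps against distance from the gap midpoint of the 789 pairs (solid) or from the TSS of single promoters with an H3K4me3 peak in the same state (dotted, transcribed to the right), in myoblasts (blue) and myotubes (orange). At pairs H3K4me3, H3K4me2 and H3K27ac rise to a maximum on both sides, H3K4me1 dips at the gap and rises outward, and H3K36me3 climbs away from the gap on both sides.

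The profile of pairs was close to symmetric because either gene may lie on either strand, and its shape is best read from how the marks follow one another outward. In myoblasts H3K4me3 reached 60.8-fold at 375 bp left of the midpoint and 59.1-fold at 375 bp right of it. H3K27ac peaked at 275 bp (58.4-fold) and 325 bp (59.4-fold). H3K4me1 reached its maxima at 1175 bp (4.76-fold) and 1125 bp (4.67-fold) and fell to 2.16-fold near the midpoint. H3K36me3 was lowest near the midpoint, 1.33-fold, and highest, 4.98-fold and 5.03-fold, at 3725 bp left and 3925 bp right. In myotubes H3K4me1 peaked at 975 bp (4.79-fold) and 825 bp (4.79-fold). At single promoters with a peak in myoblasts, H3K4me3 reached 61.4-fold 275 bp downstream of the TSS, while its upstream maximum of 44.7-fold lay next to the TSS itself.

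The gap was compared with its arms, the 1 kb outside each TSS. In the 278 pairs with a gap of at least 200 bp, H3K4me3 in the central 100 bp was 28.9-fold in myoblasts, against 56.6-fold at 200 to 300 bp outside the TSSs, a ratio of 0.511 (95% counting interval 0.474 to 0.551). In myotubes the ratio was 0.587 (0.546 to 0.63). H3K27ac gave 0.645 (0.592 to 0.702) in myoblasts and 1.01 (0.946 to 1.07) in myotubes, and H3K4me2 gave 0.674 and 0.757. A dip of H3K4me3 in the centre was present without extension of the reads (0.459 and 0.596) and with extension to 250 bp (0.89 and 0.859). For H3K27ac in myotubes the ratio went from 1.43 without extension to 0.917 with 250 bp, so its direction depended on the assumed fragment length.

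The H3K4me3 level in the gap fell with its size, while those of H3K4me2 and H3K27ac did not fall steadily in either state. Pooled over pairs, H3K4me3 in the gap of myoblasts was 81.3-fold, 52.1-fold, 40.8-fold, 32.7-fold and 26.9-fold from the narrowest of these 5 gap classes to the widest. At 200 to 300 bp outside the TSSs it was also lower in the widest class, 46.1-fold against 69.5-fold in the narrowest. The median ratio of gap to arms went from 1.44 (185 pairs with at least 50 bp) through 1.09, 0.975 and 0.833 to 0.697. Without extension the 5 medians were 0.78, 0.607, 0.624, 0.726 and 0.693, with no such fall. Extension moves reads that start in the arms into a gap shorter than a fragment, so the level in narrow gaps depends on it. Over the 682 pairs with at least 50 bp the median ratio for H3K4me3 was 1.06 in myoblasts (1 to 1.12) and 0.992 in myotubes (0.94 to 1.04), and for H3K27ac 1.06 and 1.05. Without extension it was 0.682 and 0.611 for H3K4me3 and 0.707 and 0.791 for H3K27ac. With extension to 150 bp the median ratio for H3K4me1 was 0.723 (0.687 to 0.753) and 0.747 (0.712 to 0.792). Its gaps held few reads, 1280 and 1237 over all 789 pairs, and with 5 added reads both medians were 0.918. A gap without a read gives a ratio below 1 if the arms hold any, so these medians alone do not show a poorer gap. Pooled, the gap had 3.04-fold and 3.03-fold, the first 100 bp outside 2.21-fold and 2.74-fold, and 200 to 300 bp outside 3.31-fold and 3.09-fold.

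**Figure D2:**
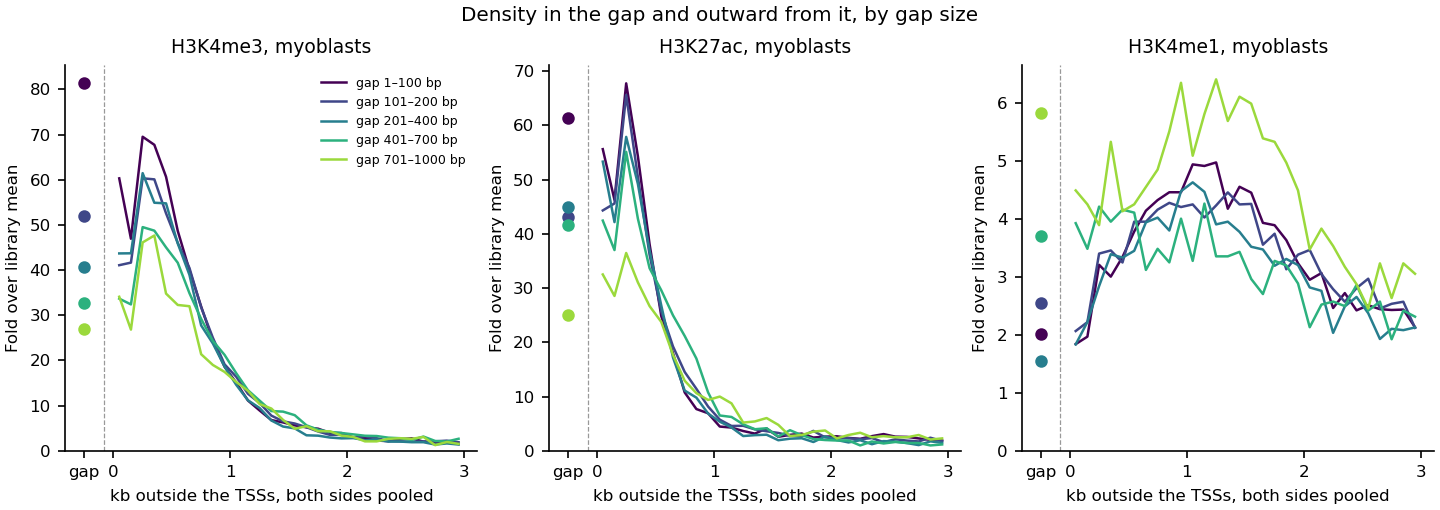
Density in the gap (dots, pooled over the pairs of a class) and in 100 bp steps outward from both TSSs (lines) for H3K4me3, H3K27ac and H3K4me1 in myoblasts, as fold over the library mean, by gap size. H3K4me3 in the gap falls from 81.3-fold in the smallest to 26.9-fold in the largest class, and H3K4me1 is 1.55-fold to 2.55-fold in gaps up to 400 bp but 3.71-fold and 5.83-fold in the 2 largest classes.

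H3K4me1 in the gap ran the other way. In myoblasts it was 2.01-fold, 2.55-fold and 1.55-fold in the 3 classes up to 400 bp, and 3.71-fold and 5.83-fold in the 2 classes above. At 200 to 300 bp outside the TSSs the 5 classes had 3.21-fold, 3.4-fold, 2.84-fold, 4.21-fold and 3.89-fold, so the pooled gap level was below that of these surroundings in all but the widest class. In the first 100 bp outside they had 1.84-fold, 2.06-fold, 1.83-fold, 3.92-fold and 4.49-fold, below the gap in some classes and above it in others. The median ratio of gap to arms was 0.76, 0.703 and 0.603 in the 3 classes up to 400 bp, with intervals below 1. These gaps held 87, 207 and 189 reads in 292, 219 and 169 pairs, so such medians can lie below 1 without a poorer gap. In the 2 classes above 400 bp the median ratio was 1.02 and 1.24 (76 and 33 pairs), with intervals of 0.637 to 1.18 and 0.678 to 1.57 that include equality.

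Flanking H3K4me1 was measured 1 to 3 kb outside each TSS and set against the core, the gap and 1 kb on either side. The median flank-to-core ratio per base was 0.937 in myoblasts (0.885 to 1) and 0.808 in myotubes (0.756 to 0.85). The flanks were richer than the core in 365 and 270 pairs (46.3% and 34.2%). At single promoters with an H3K4me3 peak these shares were 39.2% and 36.4%. For H3K4me3 the ratios were 0.0869 and 0.105, and for H3K27ac 0.0715 and 0.112. For H3K36me3 they were 1.78 and 1.44. Single promoters with an H3K4me3 peak had 0.793 and 0.8 for H3K4me1. The ratio rose with the H3K4me3 level of the pair. With the pairs split by their H3K4me3 in myoblasts into 4 groups of near-equal size, the median ratio from the lowest to the highest group was 0.594, 0.787, 1.04 and 1.68, the core going from 3.00-fold to 2.36-fold and the flanks from 1.68-fold to 3.65-fold. With the pairs split by their H3K4me3 in myotubes, the 4 medians in myotubes were 0.577, 0.695, 0.846 and 1.13. The core went from 2.60-fold to 3.62-fold and the flanks from 1.22-fold to 4.08-fold. The core was thus lower in the highest than in the lowest group in myoblasts and higher in myotubes, though the groups of each state need not hold the same pairs. The highest H3K4me1 window belonged to Plcd3/Acbd4 (chr11:102962972-102962996), encoding a phospholipase C and an acyl-CoA binding protein, with 295 reads in myoblasts, 185 of them in the flank of Plcd3, 73 in that of Acbd4 and 18 in each arm. In myotubes it had 182 reads.

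The arms of a pair were called apart when they differed at least 2-fold, held at least 30 reads together and the exact binomial interval of their shares left out equality. H3K4me3 arms were apart in 256 of 696 pairs in myoblasts, with 132 higher on the minus strand and 124 on the plus strand, and in 246 of 697 in myotubes. Over all promoter windows, in which single promoters count upstream against downstream, the share was 67.4% in myoblasts and 58.7% in myotubes. The weaker arm held a median of 0.634 of the stronger at pairs and 0.323 at single promoters in myoblasts. H3K4me2 arms were apart in 276 of 734 and 131 of 719 pairs (all windows 55.2% and 40.7%). For H3K27ac the counts were 260 of 481 (54.1%) and 292 of 562 (52%), beside 67.8% and 59.8% of all windows. Thinning the deeper myotube library to the depth of the myoblast library left 124 pairs apart in myotubes and 260 in myoblasts. Fewer pairs can reach 30 reads after thinning, and the number tested was not recorded, so the thinned counts give no shares. For H3K4me1 the counts were 60 of 118 and 13 of 87 (all windows 51.5% and 28.6%), and they hung on the settings. They were 185 and 167 for arms of 3 kb, 15 and 0 for arms of 500 bp, and 169 and 89 with a minimum of 10 reads. Too few pairs reached 30 reads in the arms for H3K36me3 and H3K27me3, 7 and 4 in myoblasts. With arms of 3 kb, H3K36me3 arms were apart in 236 pairs in myoblasts and 106 in myotubes, and H3K27me3 arms in 17 and 6. For other arm widths and read minima, neither the numbers tested nor the shares of all windows were recorded. Those counts therefore do not compare the states. In myoblasts H3K4me3 arms were apart in 29.2% of the tested pairs with gaps up to 100 bp and in 37%, 41.8%, 46.7% and 59.3% of the wider classes.

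**Figure D3:**
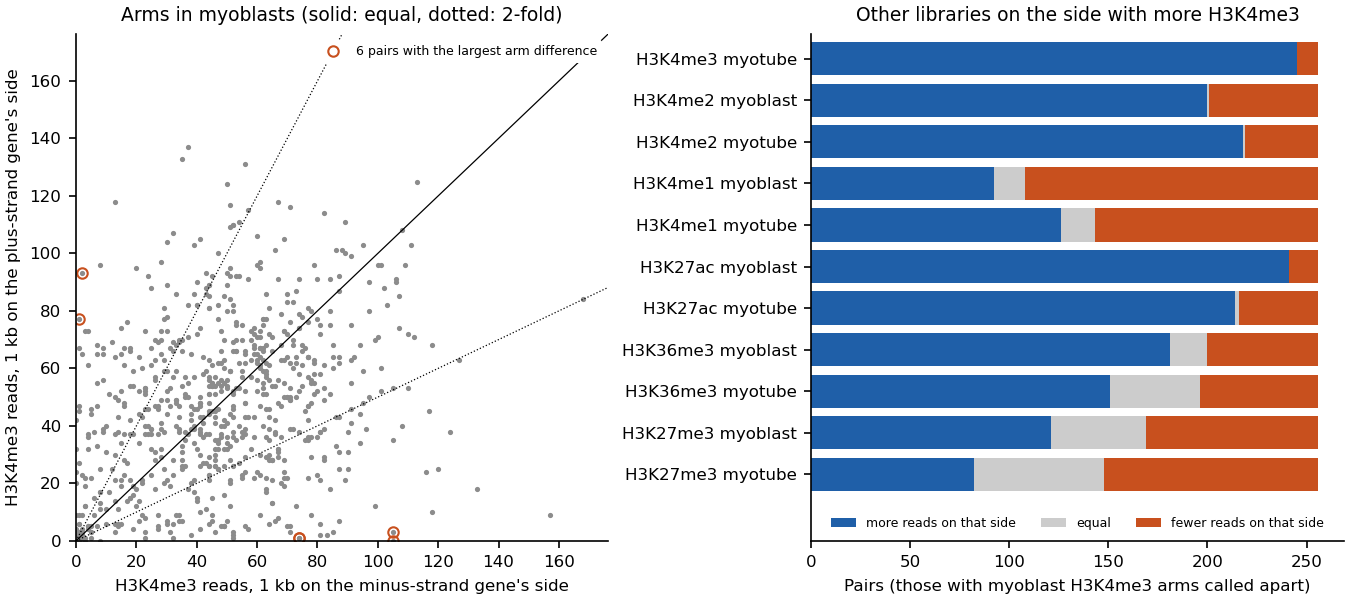
Left, H3K4me3 reads of myoblasts in the 1 kb outside the minus-strand TSS (x axis) and the plus-strand TSS (y axis) of each pair, with lines of equality (solid) and 2-fold difference (dotted) and the 6 pairs with the largest difference circled. Right, for the 256 pairs called apart there, the number with more, equal or fewer reads on that same side in each other library, from 245 with more for H3K4me3 in myotubes to 82 for H3K27me3 in myotubes.

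The same gene of a pair was favoured in both states and by other marks. Of the 256 pairs, the arm with more H3K4me3 in myoblasts also had more H3K4me3 in myotubes in 245, more H3K27ac in myoblasts in 241 and more H3K4me2 in 200. Among 164 pairs called apart in both states the same arm was higher in 161. H3K4me1 differed with distance. Within 1 kb in myoblasts it was higher on the arm with more H3K4me3 in 92 pairs and lower in 148, and 1 to 3 kb out it was higher in 189 and lower in 59. In myotubes the corresponding counts were 126 against 113 and 196 against 53. The H3K4me1 reads summed to 2135 against 3169 within 1 kb and to 5679 against 3169 in the flanks, in myoblasts. H3K36me3 was also counted along gene bodies, from 1 kb after the TSS to the gene's end. In 216 of the 256 pairs both genes were at least 3 kb long, and the body on the favoured side was richer in 189 in myoblasts and 165 in myotubes, with medians of 5.78-fold against 1.89-fold and 4.68-fold against 2.2-fold. Over all 651 pairs of such genes, both bodies were above 2-fold in 397, 1 of them in 190 and neither in 64 in myoblasts. These body counts have no share of other genes beside them.

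In the 6 pairs with the largest H3K4me3 difference in myoblasts by the bound of its interval, nearly all reads lay on 1 side, and in both states on the same side. Csnk2b, the regulatory subunit of casein kinase 2, had 105 H3K4me3 reads in its arm and Gpank1 had 0, which allows up to 3 reads (chr17:35258998-35259897, gap 899 bp, with the TSS of another gene in the window), and in myotubes they had 104 and 0. Ctdspl2, a phosphatase-like gene, had 77 and Mageb3 had 1 (chr2:121781096-121781737), and 82 and 2 in myotubes. Wbp11, a splicing factor, had 74 and BC049715 had 1 (chr6:136776754-136777364), and 42 and 4 in myotubes. Haghl had 74 and Ccdc78 had 1 (chr17:25922618-25923525), and 91 and 0 in myotubes. Stx8, a SNARE protein, had 93 and Wdr16 had 2 (chr11:67779153-67779695), and 88 and 3 in myotubes. Tpcn1, an endolysosomal cation channel, had 105 and Iqcd had 3 (chr5:121038622-121039025), and 86 and 4 in myotubes. Their gaps ran from 403 to 907 bp. H3K27ac in myoblasts followed, with 50 and 0 reads at Csnk2b and Gpank1 and 81 and 1 at Ctdspl2 and Mageb3. At Tpcn1/Iqcd H3K4me1 was reversed in myoblasts, with 3 reads in the arm of Tpcn1 and 47 in that of Iqcd. The body of Haghl had 12.1-fold H3K36me3 and that of Ccdc78 9.79-fold, a smaller difference than that of the arms.

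Between the states, H3K4me2 and H3K27ac reads relative to library totals fell both at pairs and over all promoter windows, while H3K4me3 was mostly kept. A window was called higher or lower when it changed at least 2-fold, 1 read being added to each count, among windows whose libraries summed to 30 reads or more. H3K4me3 was higher in 2 and lower in 16 of 736 pairs, where 4.4% and 6.18% of all promoter windows were higher and lower. H3K27ac was higher in 11 and lower in 289 of 723 (all windows 6.75% and 35.2%), with a median ratio of 0.574 (0.543 to 0.597). H3K4me2 was higher in 0 and lower in 163 of 756 (all windows 3.14% and 29%). H3K4me1 was higher in 58 and lower in 49 of 751 (all windows 6.47% and 14.4%), and H3K36me3 in 6 and 74 of 622 (all windows 5.01% and 12%). H3K27me3 was higher in 3 and lower in 11 of 154 (all windows 1.84% and 5.92%).

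The split of higher and lower calls depended on the scaling. The median ratio over all promoter windows tested was 0.919 for H3K4me3, 0.662 for H3K4me2, 0.876 for H3K4me1, 0.621 for H3K27ac, 0.881 for H3K36me3 and 0.903 for H3K27me3. With each set to 1, H3K27ac was higher in 45 and lower in 74 pairs, H3K4me2 in 51 and 24, H3K4me1 in 87 and 28, H3K4me3 in 5 and 7, H3K36me3 in 13 and 60, and H3K27me3 in 6 and 7. Scaled by reads outside peaks, H3K4me1 was higher in 28 and lower in 103, H3K4me3 in 3 and 10, and H3K4me2 in 0 and 430. The shares of all promoter windows were not counted under these scalings, so these counts have no background beside them. Changes of single pairs are therefore best read against the median ratios over all promoter windows. The pairs' own median ratios were 0.925, 0.72, 1.03, 0.574, 0.815 and 0.893 in the same order of marks, and those of single promoters with an H3K4me3 peak in both states 0.917, 0.698, 0.959, 0.6, 0.815 and 0.915.

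**Figure D4:**
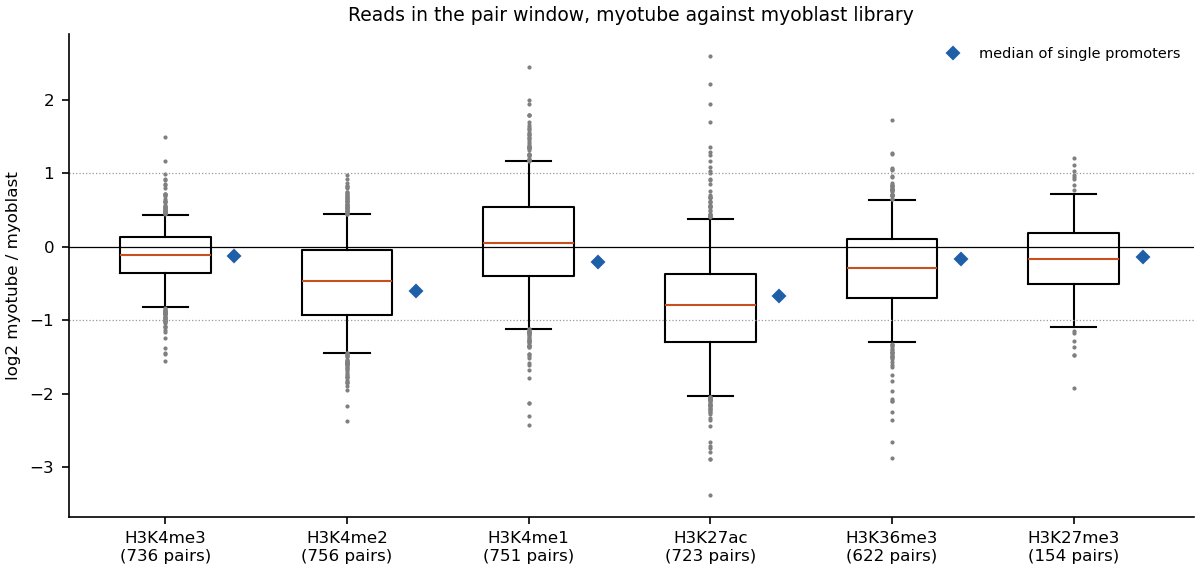
Log2 ratio of reads in the pair window, myotube over myoblast library, scaled by total reads with 1 read added, for pairs whose libraries summed to 30 reads or more. Boxes give quartiles and median, whiskers the 5th and 95th percentiles, dots the pairs outside them, dotted lines a 2-fold change and diamonds the median of single promoters. H3K27ac and H3K4me2 lie mostly below 0 in pairs and single promoters.

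The changes of the 2 arms of a pair were compared with each other. Across pairs with at least 30 reads in each arm over both libraries, the log2 ratio of the minus arm and that of the plus arm had a Pearson correlation of 0.0754 for H3K4me3 (612 pairs), 0.229 for H3K4me2 (681 pairs) and 0.302 for H3K27ac (371 pairs). Upstream and downstream arms of single promoters gave 0.355, 0.41 and 0.607. The median absolute difference between the log2 ratios of the 2 arms went the other way, being smaller at pairs (0.46, 0.60 and 0.68) than at single promoters (0.53, 0.63 and 0.70). These values share the 2 libraries and carry counting noise, and single promoters cover a wider range of changes, so how far the arms changed together was not settled by them.

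**Figure D5:**
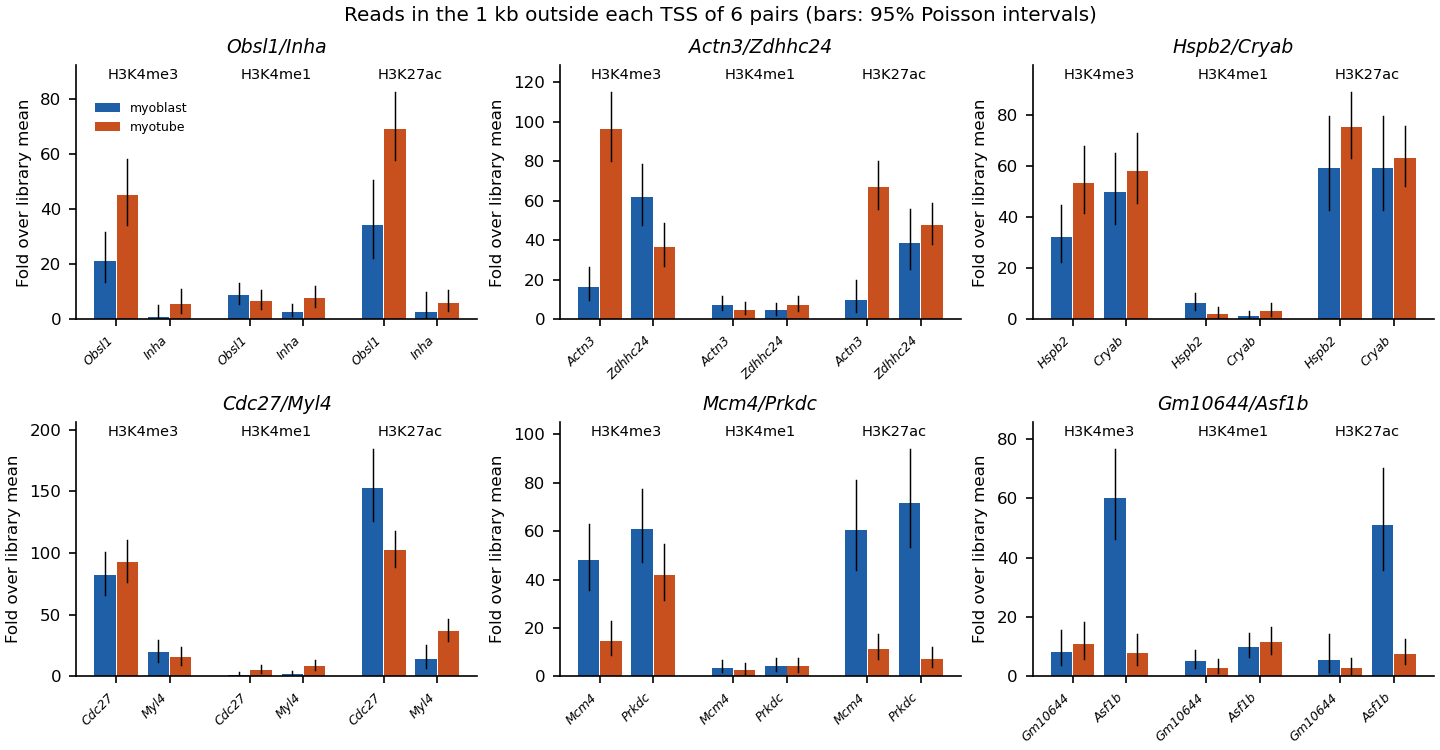
Reads in the 1 kb outside each TSS of 6 pairs for H3K4me3, H3K4me1 and H3K27ac, as fold over the library mean, in myoblasts (blue) and myotubes (orange), each bar marked with its exact 95% Poisson interval. The Actn3 side of H3K4me3 rises from 18 to 124 reads and the Asf1b side falls from 65 to 10, while their partners change by less than 2-fold.

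Of 80 muscle genes listed, 5 were in a pair, in 4 pairs. Actn3 encodes alpha-actinin of fast muscle fibres and shares a 759 bp gap with Zdhhc24, a palmitoyltransferase gene (chr19:4877909-4878668). Its H3K4me3 arm had 18 reads in myoblasts and 124 in myotubes, a ratio of 5.79 (3.52 to 10.1), while that of Zdhhc24 had 67 and 47, a ratio of 0.59 (0.397 to 0.87). The side with more H3K4me3 thus changed. H3K27ac went from 7 to 124 on the Actn3 side and from 28 to 88 on the Zdhhc24 side, ratios of 6.97 (3.28 to 17.7) and 1.24 (0.8 to 1.97). H3K36me3 in the body of Actn3 went from 5.12-fold to 12.9-fold, and in that of Zdhhc24 from 6.54-fold to 7.97-fold.

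Cdc27 encodes a subunit of the anaphase-promoting complex and shares the 43 bp gap shown above with Myl4, an embryonic and atrial myosin light chain. H3K4me1 in its window went from 20 to 110 reads, a ratio of 5.68 (3.51 to 9.66). In the flanks it rose from 8 to 28 reads on the Cdc27 side and from 5 to 48 on the Myl4 side. H3K4me3 stayed higher on the Cdc27 side, with 89 and 119 reads against 21 and 20. H3K27ac on the Myl4 side went from 10 to 68 reads, a ratio of 2.67 (1.37 to 5.83), and on the Cdc27 side from 111 to 189, a ratio of 0.67 (0.527 to 0.855). H3K36me3 in the body of Myl4 went from 1.04-fold to 4.32-fold, while in Cdc27 it was 5.97-fold and 4.23-fold.

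Hspb2 and Cryab, small heat shock proteins of muscle, share a 404 bp gap (chr9:50560459-50560863). H3K4me3 in their window went from 163 to 349 reads, a ratio of 1.8 (1.49 to 2.18), with 35 and 69 reads in the arm of Hspb2, 54 and 75 in that of Cryab, and 36 and 149 in the flank of Cryab. Smyd1, a muscle methyltransferase, lies beside the T cell coreceptor gene Cd8b1 (chr6:71272227-71272830), and the window held 4 H3K4me3 reads in each state, below the library mean. H3K36me3 in the body of Smyd1 was 0.973-fold in myoblasts and 2.22-fold in myotubes. The 5′-most annotated TSS of Smyd1 thus lay outside any H3K4me3 peak in both states.

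The largest H3K4me3 rise in the window was at Obsl1/Inha (chr1:75503027-75503652), encoding obscurin-like 1, a protein of the sarcomere and cytoskeleton, and inhibin alpha. The window had 41 reads in myoblasts and 139 in myotubes, a ratio of 2.85 (2.00 to 4.15), and 23 and 58 of them lay in the arm of Obsl1 against 1 and 7 in that of Inha. H3K36me3 in the window rose from 34 to 70 reads, a ratio of 3.36 (2.2 to 5.22), though 1.36 in the gap and 1 kb alone, and in the body of Obsl1 it went from 3.06-fold to 15.2-fold. At Cep57l1/Sesn1 (chr10:41529676-41530380) H3K4me3 went from 180 to 385 reads, a ratio of 1.8 (1.5 to 2.16). It had 56 and 137 reads on the side of the stress-response gene Sesn1 against 44 and 59 on that of Cep57l1. The other reads of the window lay outside these counts.

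Among the pairs with the largest falls, Gm10644/Asf1b lost reads on 1 side and Mcm4/Prkdc on both. Asf1b, a histone chaperone of dividing cells, is paired with Gm10644 (chr8:86479104-86479406). Its H3K4me3 arm fell from 65 to 10 reads, a ratio of 0.129 (0.0593 to 0.253), and its H3K27ac arm from 37 to 14, a ratio of 0.149 (0.0743 to 0.282), while the arm of Gm10644 had 9 and 14 H3K4me3 reads, a ratio of 1.31 (0.527 to 3.43). H3K36me3 in the body of Asf1b went from 4.99-fold to 1.21-fold. Mcm4 encodes a subunit of the replicative helicase and Prkdc the catalytic subunit of DNA-dependent protein kinase (chr16:15637493-15637959, gap 466 bp). H3K27ac in their window fell from 139 to 53 reads, a ratio of 0.15 (0.107 to 0.207), on both sides, with ratios of 0.188 (0.106 to 0.323) at Mcm4 and 0.0983 (0.0491 to 0.183) at Prkdc. H3K4me3 went from 52 to 19 reads at Mcm4 and from 66 to 54 at Prkdc, ratios of 0.307 (0.172 to 0.529) and 0.688 (0.471 to 1). The body of Mcm4 went from 6.05-fold to 2.61-fold H3K36me3, and that of Prkdc was 1.77-fold and 1.79-fold.

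Brca1, a gene of DNA repair, and Nbr1, an autophagy receptor gene, share the 194 bp gap shown above. The window held 250 H3K4me3 reads in myoblasts and 299 in myotubes, a ratio of 1.01 (0.848 to 1.19). The arm of Brca1 had 60 and 23 reads, a ratio of 0.322 (0.19 to 0.529), and that of Nbr1 had 106 and 131, a ratio of 1.04 (0.799 to 1.36). H3K27ac was 14 and 4 reads at Brca1 and 68 and 155 at Nbr1, ratios of 0.112 (0.0269 to 0.358) and 0.897 (0.67 to 1.21). H3K36me3 in the body of Brca1 went from 4.64-fold to 1.15-fold, and in that of Nbr1 it was 9.89-fold and 9.7-fold. The intervals of the ratios of Brca1 and Nbr1 did not overlap for either promoter mark.

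For the other textbook pairs the H3K4me3 reads of the whole window are given. Atm, a DNA damage kinase gene, and Npat, a coactivator gene of histone transcription (chr9:53344845-53345152), had 124 and 86 H3K4me3 reads, a ratio of 0.583 (0.438 to 0.774), with 44 and 38 on the Atm side and 45 and 31 on the Npat side. Aimp2, of the multi-tRNA synthetase complex, and Pms2, of mismatch repair, had 125 and 173 H3K4me3 reads, a ratio of 1.16 (0.92 to 1.48). Mrps12/Sars2 had 96 and 131, a ratio of 1.15 (0.875 to 1.51), and H3K36me3 in the body of Sars2 went from 2.98-fold to 5.41-fold. Col4a4 and Col4a3, chains of basement membrane collagen, had 7 H3K4me3 reads in each state and no H3K4me3 peak, but 69 and 35 H3K27me3 reads, 4.14-fold (3.22 to 5.24) in myoblasts.

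Other falls lay on both sides of the pair or on 1 of them. H3K4me3 at Bend6/Dst (chr1:33964661-33965125), where Dst encodes the cytoskeletal linker dystonin, went from 180 to 77 reads, a ratio of 0.36 (0.272 to 0.472), with arms of 64 and 72 reads in myoblasts and 26 and 30 in myotubes, and H3K27ac went from 78 to 28, a ratio of 0.141 (0.0883 to 0.22). At Fnip2/4930589L23Rik (chr3:79371718-79372114) H3K4me3 went from 96 to 38, a ratio of 0.333 (0.222 to 0.489), 71 and 19 of these reads in the arm of Fnip2, a folliculin-interacting protein gene. H3K4me2 fell most at Wdr54/1700003E16Rik (chr6:83106391-83106398), from 343 to 84 reads, a ratio of 0.221 (0.172 to 0.281), while H3K4me3 there had 66 and 81 reads. It fell to 0.275 of its level at Dok1/Loxl3 (chr6:82983465-82984167) and to 0.299 at Pusl1/Acap3, where 302 of 650 myoblast reads lay in the flank of Acap3. Scaled to a median ratio of 1, these 3 falls were to 0.337, 0.418 and 0.452. With scaling by total reads no pair passed 2-fold upward for H3K4me2, while 51 did with the median ratio set to 1. The largest rises by their lower bound had ratios of 1.99 at 1200016B10Rik/1190005F20Rik, 1.9 at AA474408/Zfp143 and 1.83 at Rps6kb1/Tubd1, which became 2.98, 2.85 and 2.75 with that median set to 1.

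H3K27ac rose most by its lower bound at Acyp1/Fam164c (chr12:86629388-86629541), from 38 to 458 reads, a ratio of 4.74 (3.4 to 6.79), with 256 of the myotube reads in the arm of Fam164c and 106 in that of Acyp1, an acylphosphatase gene. At Nisch/Sema3g (chr14:32030132-32031046) it went from 7 to 122 reads, a ratio of 6.86 (3.23 to 17.4), and 106 of these lay 1 to 3 kb from the TSS on the side of Nisch, so that in the gap and 1 kb alone the ratio was 1.7. Enkur/Thnsl1 (chr2:21126992-21127351) rose in H3K27ac from 24 to 242 reads, a ratio of 3.97 (2.6 to 6.31), and in H3K4me1 from 24 to 95, a ratio of 4.09 (2.59 to 6.69). The third largest H3K4me1 rise was at 2810004N23Rik/Gnpat, from 28 to 96 reads, and the falls were at Spnb4/Blvrb (135 to 29), Il11/Tmem190 (38 to 6) and Sirt6/Ankrd24 (156 to 43). H3K36me3 fell at Spata1/Gng5 (47 to 3 reads), at Brd8/Kif20a (157 to 22), where Kif20a is a mitotic kinesin, and at Hnrnpa2b1/Cbx3 (92 to 11), and rose at Pcsk4/Reep6 (24 to 36) and Acd/Pard6a (109 to 122), the last by less than 2-fold. In the gap and 1 kb alone the ratios of the 3 falls were 0.408, 0.453 and 0.753 in the same order, so Hnrnpa2b1/Cbx3 did not pass 2-fold there. At Hnrnpa2b1/Cbx3, encoding an RNA-binding protein and heterochromatin protein 1 gamma, H3K4me3 was 41.4-fold and 39.7-fold at the same time, and H3K36me3 in the bodies went from 13.8-fold to 4-fold and from 7.22-fold to 2.35-fold.

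H3K27me3 covered few pairs. Nr2e1/Ostm1 (chr10:42303438-42303628), where Nr2e1 is a nuclear receptor of neural progenitors and Ostm1 a lysosomal protein, was highest with 224 reads in myoblasts, 13.2-fold (11.5 to 15.0), and 65 in myotubes, a ratio of 0.406 (0.303 to 0.537). E130018O15Rik/Hmx1 (6.8-fold, with the homeobox gene Hmx1), Lrrc63/Lcp1 (6.33-fold, with leukocyte plastin), D0H4S114/Gm10549 (5.17-fold), Ntrk3/Gm9885 (5.05-fold, with a neurotrophin receptor) and Lyzl4/Vipr1 (4.9-fold, with a neuropeptide receptor) followed. H3K4me3 was between 0.574-fold and 3.76-fold at these 6 pairs in myoblasts. Dusp3/1700006E09Rik (chr11:101848327-101848370) had 72 H3K27me3 reads in myoblasts, with 5 in the flank of Dusp3, a phosphatase gene, and 32 in that of 1700006E09Rik, beside bodies of 11.1-fold and 0.26-fold H3K36me3. The flank of Dusp3 also held 32 of its 41 H3K4me3 reads and 74 of its 76 H3K27ac reads. The rises of H3K27me3, at Alg2/Sec61b (13 to 22 reads), Bet1l/Ric8 (12 to 19) and Ftsj3/Psmc5 (15 to 21), rested on few reads, and the falls at Fbxl13/Armc10 (31 to 5) and Ccdc92/Zfp664 (34 to 8) likewise. In the gap and 1 kb alone the rises had ratios of 1.4, 0.9996 and 1.2.

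At the extremes, 5031425E22Rik/Mll5 (chr5:22939737-22940259) had the most H3K4me3, 56.1-fold (50.7 to 61.9), and the most H3K27ac, 96.2-fold, in myoblasts, and 74.7-fold and 75.7-fold in myotubes, Mll5 being a trithorax-family gene. Plcd3/Acbd4 had the most H3K4me2, 76.6-fold. Noc4l/Ddx51 (chr5:111082436-111082470), both of ribosome biogenesis, had the most H3K36me3, 12.1-fold, with bodies of 14.7-fold and 16.2-fold. Gm10598/Gm10597 had no read of any mark in either state, and whether reads can be placed there uniquely was not tested. Bai3/Gm9884 was 1 of 11 pairs with no H3K27ac read in myoblasts, and each library had 4 to 11 pairs without a read.

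Genes grouped by symbol were spread unevenly over the pairs. Of 189 genes with mitochondrial symbols, 40 (21.2%) were in a pair, as were 36 of 133 (27.1%) with symbols of DNA replication, repair or polymerases, 27 of 66 histone genes (40.9%), 7 of 34 tRNA synthetase genes (20.6%), 6 of 51 proteasome genes (11.8%), 10 of 144 with ribosomal symbols (6.94%) and 3 of 42 with collagen symbols (7.14%), beside 7.29% of all genes. The symbol prefixes also take in RNA polymerase subunits, Rpain, the kinase gene Rps6kb1 and Col4a3bp, which is no collagen. In myoblasts the median H3K4me3 was 21.9-fold in the 39 mitochondrial pairs, 20.02-fold in the 37 replication and repair pairs and 26.97-fold in the 10 ribosomal pairs. No replication and repair pair was at least 2-fold lower in H3K4me3 in myotubes, with a median ratio of 0.829 over the 37 tested. H3K27ac was lower in myotubes in 19 of 39 mitochondrial pairs (median ratio 0.503), 21 of 37 replication and repair pairs (0.484) and 0 of 10 ribosomal pairs (0.735), beside 35.2% of all promoter windows. H3K36me3 had median ratios of 0.806, 0.632 and 0.653 in the same groups.

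The 14 histone pairs stood at 8.07-fold H3K4me3 and 0.79-fold H3K36me3 in myoblasts. H3K27ac was lower in myotubes in 9 of the 11 pairs tested, with ratios (1 read added) from 0.0962 to 0.702 and a median of 0.238, while the median ratio of H3K4me3 was 1.06. Hist1h2an/Hist1h2bp (chr13:21879087-21879330) had the largest H3K27ac fall of all pairs by its upper bound, from 44 to 10 reads, a ratio of 0.0894 (0.0401 to 0.18). Histone genes have near-identical copies, and the study kept uniquely aligned reads in myoblasts, so the levels of single histone pairs are uncertain.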

How the data were processed

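The deposited read files hold 1 line for each aligned read, so the authors' values are raw counts without normalisation. Per the study's methods and labels, the authors aligned reads to mm9 with Mosaik, kept unique alignments for the myoblast marks and called peaks with MACS. The aligner of the myotube libraries is not given in the sources used here. The deposited peak lists carry a MACS score for each peak, which served here only as a threshold in an alternative. No input library was used.

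Gene starts came from the mm9 annotation. Reads were extended to 150 bp and midpoints counted with Python 3.11.15, numpy 2.4.6, pandas 2.3.3 and scipy 1.17.1. Levels are reads per base over the library mean on the 19 autosomes and X. Libraries held 1858771 to 7033100 reads, and repeated reads at a position were 0.417% to 3.14%. With 1 library per mark and state no test was run. Counts have exact Poisson intervals, shares and ratios exact binomial ones and medians order-statistic ones, all at 95%. Those of counts, shares and ratios cover counting error only, and those of medians reflect the spread and number of pairs. The counting steps were tested on reads simulated at the depth of the H3K4me3 libraries and at high levels. Low counts, such as those of H3K4me1 in the gaps, were not simulated.

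The pairs and gene lists were chosen with earlier results of these data known. Named pairs were textbook pairs, pairs with a listed muscle gene, the 6 with the largest H3K4me3 arm difference in myoblasts, the 3 largest rises and falls of each mark by the bound nearest to 1, the 6 highest in H3K27me3, those with the highest H3K27me3 arm difference, and the highest and lowest of each mark in myoblasts. Sequences are those of textbook, arm-difference and changed pairs with gaps of 30 to 300 bp, at most 8. Alternatives covered fragment length, duplicates, other TSSs, largest gap, annotation, background, arm and window width, read minimum, added reads and scaling.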

Additional observations from a re-analysis of the deposited data

How the results depend on the processing

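Each mark and state had 1 library, so nothing could be left out in turn. No paired analysis was possible because no mark had more than 1 library in a state. Reads in the window were few for H3K27me3 and H3K36me3 (medians of 9 to 36), and intervals of counts and ratios cover counting error only. H3K4me3 peak counts stayed within 1.5 times under a higher score minimum and a wider overlap, and H3K4me3 arm counts under every read minimum, arm width and duplicate setting tried. Where no cause is given below, the cause was not tested.

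Against the 200 kb around each pair the median levels were 9.72, 8.92, 7.65, 5.95, 1.73, 1.8, 5.95 and 3.79 for H3K4me3, H3K4me2, H3K4me1 and H3K27ac, myoblasts before myotubes, H3K36me3 turned to 0.857 and 0.663, and H3K27me3 in myotubes was 0.617. In the same order, gap-to-arm ratios were 0.682, 0.611, 0.644, 0.594, 0.665, 0.701, 0.707 and 0.791 without extension. With 250 bp they were 1.31, 1.21, 1.18, 0.931, 1.42 and 1.44 for H3K4me3, H3K4me2 and H3K27ac. With arms of 500 bp they were 0.909, 0.877, 0.884, 0.72, 0.801, 0.823, 0.856 and 0.855, and with 5 added reads 0.879 for H3K4me2 in myotubes and 0.918 and 0.918 for H3K4me1. H3K4me1 flanks at 2 to 3 kb gave 0.639 and 0.621.

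H3K4me1 arms were apart in 15 and 0 pairs with 500 bp arms, 185 and 167 with 3 kb, 169 and 89 with at least 10 reads, and 12 and 0 with at least 60. H3K4me2 arms in myotubes reached 213 with 3 kb, and H3K27ac arms fell to 118 and 163 with at least 60 reads. In an alternative added after seeing the data, thinning both libraries to the shallower depth left 124 H3K27ac pairs in myotubes. For all these arm counts the numbers of pairs tested were not recorded. Keeping 1 pair for each shared gene, also added then, left 773 pairs.

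Higher and lower counts in myotubes moved as follows, and shares of all promoter windows were not counted under these settings. Scaled to a median ratio of 1, they were 5 and 7 for H3K4me3, 51 and 24 for H3K4me2, 87 and 28 for H3K4me1, 45 and 74 for H3K27ac, 13 and 60 for H3K36me3, and 6 and 7 for H3K27me3. Scaled by reads outside peaks, H3K4me1 had 28 and 103, and 430 pairs were lower for H3K4me2 and 10 for H3K4me3. With at least 10 reads H3K27me3 had 35 and 63, and 11 pairs were higher for H3K36me3, 2 for H3K4me2 and 4 for H3K4me3. With at least 60 reads H3K27me3 had 0 and 1, and 34 were lower for H3K36me3. With 5 added reads H3K27me3 had 1 and 5, 7 were higher for H3K27ac and 36 lower for H3K36me3. In the gap and 1 kb alone H3K27me3 had 0 and 2, H3K36me3 had 1 and 7, 1 pair was higher for H3K4me2, and the H3K27me3 ratio of Bet1l/Ric8 was 0.9996. The smaller window holds fewer reads. With the peak lists of the myoblast H3K27ac and H3K27me3 samples exchanged, 721 and 20 windows held a peak.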

Other observations

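The limit of 1000 bp did not mark an edge in the levels. In myoblasts the 21 pairs with gaps of 801 to 1000 bp had a median H3K4me3 of 12.8-fold and the 30 pairs with gaps of 1001 to 1200 bp had 14.6-fold. H3K27ac was 9.96-fold and 9.99-fold, and H3K4me1 3.33-fold and 3.86-fold. These groups are small and their values are descriptions.

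Another 397 gene pairs lay head to head with overlapping first bases, the TSSs being 0 to 999 bp apart in the other order. Their median H3K4me3 in myoblasts was 14.8-fold, H3K27ac 11.3-fold, H3K4me2 14.1-fold, H3K36me3 2.09-fold and H3K27me3 0.769-fold.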
